A study of Arabidopsis thaliana with 12 samples.

Results

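GDSL lipases and esterases form a large family of plant enzymes named after the Gly-Asp-Ser-Leu stretch around their catalytic serine. They cut or transfer ester bonds of lipids and small molecules, and most are secreted. In Arabidopsis, members are known as cutin synthases, which link acyl units into the cuticle of the shoot epidermis. Others act in the suberin of root endodermis and outer root layers, in the breakdown of seed oil, and beside the β-glucosidases of ER bodies. The family was read here as 60 listed locus codes, and a gene was measured where a probe set was paired with it alone. This held for 52 of the 60, out of 16548 genes measured in all. The remaining 8 (AT1G29670, AT1G54000, AT1G54030, AT1G54790, AT1G67830, AT3G14210, AT3G26430 and AT4G30140) are not analysed here.

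Signal was measured on 12 Affymetrix arrays, 1 per sample, in Arabidopsis thaliana seedlings that all carry CLE2, a gene for a small secreted signalling peptide, under an estradiol-inducible system. Seedlings grown for 7 days at 22 °C had their roots exposed for 24 h to β-estradiol or to the solvent DMSO. The protocol text of all 12 samples, DMSO samples included, names 5 mM β-estradiol, so that concentration is uncertain; the treatment label and title of each sample separate the treatments. Roots and shoots were then collected apart, giving 4 groups of 3 arrays, 1 for each organ and treatment. The study compared the treatments to find transcripts that follow CLE2 induction, in the organ exposed and in the shoots above it. The controls carry the same inducible gene, and no line without it received estradiol, so the effects of estradiol and of CLE2 cannot be told apart. The labels do not give the promoter of the system, the number of lines, or whether replicates were grown separately. P-values therefore cover the variation among these 12 samples alone, part or all of which may be technical. CLE2 itself was not analysed here.

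All values are log2 signal, and differences are given on the same scale with the standard error (SE) of the fit. A gene was called where limma's Benjamini-Hochberg adjusted p over all 16548 genes was under 0.05. The organ labels were checked with marker lists: between DMSO organs, the 11 measured of 55 listed photosynthesis genes were all lower in roots, and the 4 measured of 23 listed root markers were all higher. Arrays of the same group correlated at 0.986 or more, and root with shoot arrays at 0.870 or less. The DMSO root arrays differed in shoot signal, and in a way that depended on the genes read. The median of 24 shoot-enriched genes, chosen on the estradiol arrays, was 4.62 in DMSO root replicate 3, against 3.74 and 3.83 in DMSO root replicates 1 and 2. The summed linear signal of the 11 photosynthesis genes was instead highest in replicate 2, at 2834, 4396 and 3423 in replicates 1 to 3. In the estradiol roots this sum was also highest in replicate 2, at 3224, 4173 and 3138. Of the 29 GDSL genes called lower in DMSO roots, 12 were highest in replicate 3 among the DMSO roots. Each gene must be highest in 1 of the 3 arrays, and the same count over all genes was not made. The 12 therefore cannot show that replicate 3 stands apart.

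Most GDSL genes differed between the organs, and more of them were high in shoots than in roots. Of the 52 genes, 29 were lower in DMSO roots than in DMSO shoots (55.8%, against 25.8% of all genes called lower). A further 13 were higher in roots (25%, against 26.6% of all genes). At least 2-fold differences were found for 30 of the 52, or 57.7%, against 21.8% of all genes; 22 of these were lower in roots and 8 higher. The median root minus shoot difference was -0.65 over the 52 genes and -0.09 over all genes. In whole organs, fewer cells of a type and less RNA per cell cannot be told apart.

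The estradiol arrays gave nearly the same split. Their root minus shoot differences use none of the DMSO arrays. All groups were fitted together, however, and share an estimate of the spread, so the calls of the comparisons are not independent. Between estradiol roots and estradiol shoots, 28 GDSL genes were lower in roots (53.8%, against 26% of all genes called lower). A further 13 were higher (25%, against 26.5% of all genes). At least 2-fold differences were found for 27, or 51.9%, against 21.7% of all genes. Both comparisons called 39 genes, 38 of them in the same direction. The exception was AT5G45910, described with the estradiol results.

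**Figure D1:**
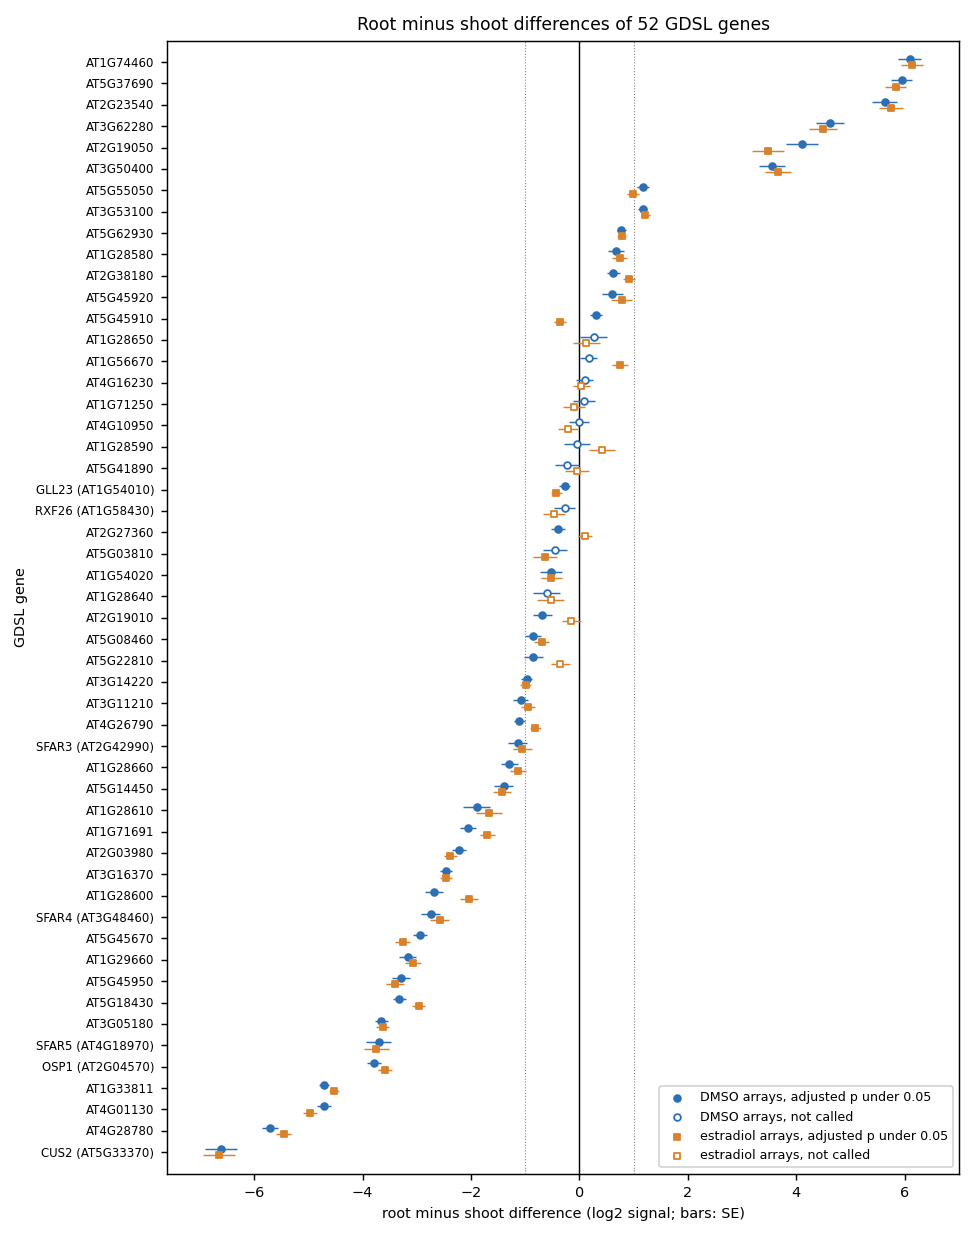
Root minus shoot difference in log2 signal (x axis) of each of the 52 GDSL genes (y axis), on DMSO arrays (circles) and estradiol arrays (squares); bars are SE, filled symbols were called, and dotted lines mark a 2-fold difference. The differences run from -6.61 for CUS2 to 6.09 for AT1G74460 on the DMSO arrays, and the points of both treatments lie close together for the widely differing genes.

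The widest shoot excess was found among the cuticle genes. CUS2 (AT5G33370) belongs to the cutin synthase branch of the family and is needed for the cuticular ridges of sepals. Its signal was 3.03, 3.70 and 4.56 in the DMSO roots, 3.90, 3.49 and 3.70 in the estradiol roots, 10.34, 10.43 and 10.36 in the DMSO shoots, and 10.34, 10.18 and 10.55 in the estradiol shoots. Every shoot array thus lay far above every root array. The DMSO difference was -6.61 ± 0.29 (SE), a 98.0-fold shoot excess (limma, adjusted p = 5.54e-09). The highest root value came from DMSO root replicate 3, and without that array the difference was -7.01.

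AT4G28780, placed with the cuticle genes in the list used here, had the next widest shoot excess, at -5.71 ± 0.14, or 52.2-fold. It read 4.53, 4.92 and 5.18 in the DMSO roots and 10.58, 10.64 and 10.54 in the DMSO shoots. On the estradiol arrays it read 5.13, 4.94 and 4.90 in roots and 10.51, 10.37 and 10.47 in shoots. Again the organs were far apart, and DMSO root replicate 3 was the highest of its group. OSP1 (AT2G04570), which is needed for an open outer stomatal pore, went from 5.19 ± 0.03 in DMSO roots to 8.98 ± 0.20 in DMSO shoots (mean ± SD, n = 3). That is a difference of -3.79 ± 0.14, or 13.8-fold. OSP1 read between 4.86 and 5.38 on all root arrays and between 8.71 and 9.19 on all shoot arrays.

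The few measured genes of the cuticle pathway and of stomata were high in the same organ. SHN2 and SHN3, transcription factor genes that activate cutin and wax synthesis, had DMSO differences of -1.65 ± 0.23 and -0.64 ± 0.21; these are 2 of the 27 listed cutin and cuticle genes, and both were called lower in roots. On the estradiol arrays only SHN2 was called. The dim SHN3 (AT5G25390) lost its DMSO call under 7 alternative settings, among them without DMSO root replicate 1 or 3 or DMSO shoot replicate 2. Its adjusted p (limma) ran from 0.00557 to 0.139 over 23 settings. WSD1, a wax ester synthase gene and the only 1 of 16 listed wax genes measured, had a difference of -2.03 ± 0.33. Of the guard cell markers, all 3 measured were lower in roots. SPCH, which starts the stomatal lineage, stood at -6.42 ± 0.25, FAMA at -4.22 ± 0.16 and MUTE at -3.20 ± 0.19. The part of epidermal and stomatal cell content in the shoot excess of the GDSL genes was not tested.

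The 3 genes grouped here as suberin-linked showed the opposite pattern and the widest root excess. AT2G19050, described below, has also been linked to suberin and had a smaller root excess. AT1G74460, AT2G23540 and AT5G37690 are linked to suberin formation in Arabidopsis roots. AT1G74460 read 9.51, 9.91 and 9.78 in the DMSO roots and 3.17, 3.67 and 4.09 in the DMSO shoots. With estradiol it read 9.75, 9.94 and 9.61 in roots and 3.48, 3.53 and 3.87 in shoots. All root arrays lay over 5 log2 units above all shoot arrays, and the DMSO difference was 6.09 ± 0.21, or 68.2-fold (limma, adjusted p = 9.33e-10).

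AT5G37690 read 9.02, 9.43 and 9.06 in DMSO roots and 2.96, 3.65 and 3.07 in DMSO shoots, a difference of 5.95 ± 0.19. AT2G23540 read 9.06, 9.68 and 9.19 in DMSO roots and 3.62, 3.77 and 3.65 in DMSO shoots, a difference of 5.63 ± 0.22. Neither gene had overlapping organs, and the fold excess in roots was 61.8 for AT5G37690 and 49.5 for AT2G23540. On the estradiol arrays the 3 suberin-linked genes differed by 5.76 to 6.14.

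**Figure D2:**
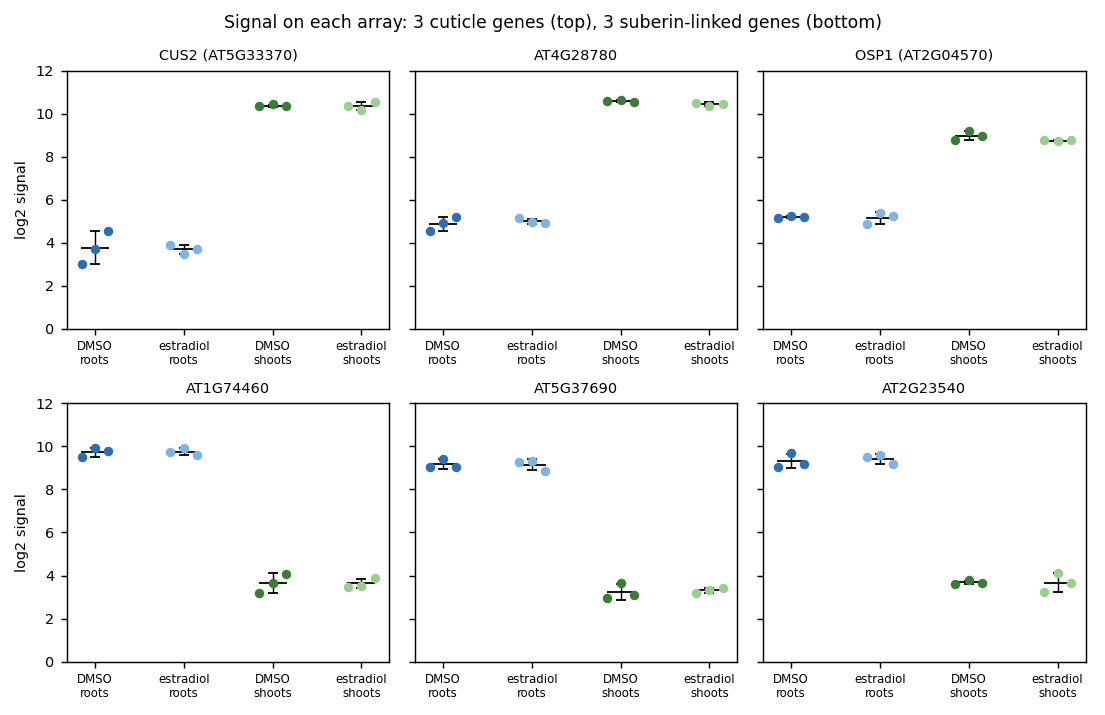
Log2 signal (y axis) on each of the 12 arrays for 3 cuticle genes (top row) and 3 suberin-linked genes (bottom row); points are arrays, and the black line and bar give mean and SD of each group of 3. CUS2, AT4G28780 and OSP1 are high in both shoot groups and AT1G74460, AT5G37690 and AT2G23540 in both root groups.

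A further set of root-high genes lay outside these 3. AT3G62280 read 7.76, 7.70 and 7.63 in DMSO roots and 3.14, 2.92 and 3.16 in DMSO shoots, a 24.6-fold root excess. AT2G19050, which has likewise been linked to suberin, read 7.67, 6.96 and 7.81 in DMSO roots and 3.54, 3.33 and 3.27 in DMSO shoots. AT3G50400 had a root excess of 3.55 ± 0.24, or 11.7-fold. For each of these genes the lowest root array lay above the highest shoot array, in both treatments. AT5G55050 and AT3G53100 were higher in roots by only 1.17 ± 0.11 and 1.17 ± 0.08, which completes the 8 genes at least 2-fold higher in roots.

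Of 21 listed suberin pathway genes, 2 were measured, and both were higher in roots. AT2G48130 (LTPG15), which encodes a lipid transfer protein linked to suberin, differed by 5.28 ± 0.14. FACT, an acyltransferase gene that makes alkyl caffeates, differed by 3.45 ± 0.27. SGN3 (named GSO1 in the gene table), the receptor gene that keeps the endodermal barrier closed, was the only 1 of 8 listed endodermis markers measured, and it was higher in roots by 2.26 ± 0.15. Other endodermis markers were not measured, so the part of endodermal cell content in these differences was not tested.

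The genes of seed oil breakdown were higher in shoots. SFAR proteins lower the fatty acid store of Arabidopsis seeds, and 3 of the 4 listed genes were measured, all lower in roots. SFAR5 (AT4G18970) read 3.33, 2.39 and 2.73 in DMSO roots and 6.49, 6.44 and 6.64 in DMSO shoots, a difference of -3.71 ± 0.23. SFAR4 (AT3G48460) differed by -2.74 ± 0.18 and SFAR3 (AT2G42990) by -1.14 ± 0.18. SFAR5 was 13.0-fold and SFAR4 6.70-fold higher in shoots, and the organ groups of each of the 3 genes did not overlap.

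Of the 6 listed members tied to ER bodies and the myrosinase system, 3 were measured, and all were called lower in DMSO roots, by less than 2-fold. GLL23 (AT1G54010) is found with PYK10, the main β-glucosidase of ER bodies. It read 9.17, 9.03 and 8.81 in DMSO roots and 9.26, 9.38 and 9.19 in DMSO shoots. Its difference of -0.27 ± 0.10 only just passed (limma, adjusted p = 0.0447). The call held under only 13 of 24 alternative settings, with adjusted p from 0.00233 to 0.179. It was lost without DMSO root replicate 2 or 3, without DMSO shoot replicate 1 or 2, and without any 1 estradiol array except shoot replicate 2, and the difference was -0.17 without DMSO root replicate 3. AT3G14220 was lower in roots by 0.97 log2 units (SE 0.10), and AT1G54020, a dim gene with a mean of 2.36 in DMSO roots, had a difference of -0.53 ± 0.20. The call of AT1G54020 held under only 7 of 23 settings (adjusted p from 0.0067 to 0.201). Among other settings, it was lost without any 1 array other than DMSO root replicate 3, DMSO shoot replicate 3 and estradiol root replicate 3.

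Other ER body and myrosinase genes were mostly root-high. Of 24 listed, 10 were measured, and 9 of these were higher in DMSO roots, with a median difference of 2.85 over the 10. BGLU22 and BGLU21, ER body β-glucosidase genes, differed by 7.95 ± 0.35 and 7.05 ± 0.43, and the lectin gene JAL31 by 3.96 ± 0.11. PYK10 differed by 1.39 ± 0.08. BGLU21, BGLU22 and PYK10 are close copies of each other, and the share of each in these signals was not tested. In DMSO shoots PYK10 read 12.04, 11.90 and 11.86. BGLU21 read 5.23, 3.08 and 3.68 on the same arrays, and BGLU22 read 2.50, 4.19 and 2.55. The difference between these genes and the GDSL genes beside them was not tested.

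Genes of the isoamyl acetate hydrolase type, a small side branch named after a yeast esterase, were measured in full, 4 of 4. AT5G62930, AT2G38180 and AT5G45920 were higher in DMSO roots, by 0.77 ± 0.08, 0.63 ± 0.11 and 0.61 ± 0.19. AT3G11210 went the other way, at -1.09 ± 0.13. All of these differences were near 2-fold or smaller. The call of AT5G45920 on the DMSO arrays was lost under 7 alternative settings, among them without DMSO root replicate 1, DMSO root replicate 3 or DMSO shoot replicate 1. Its adjusted p (limma) ran from 0.00773 to 0.0868 over 24 settings.

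Several further shoot-high genes have no role given here. AT4G01130 read 4.98, 5.29 and 5.40 in DMSO roots and 9.96, 9.93 and 9.93 in DMSO shoots. AT1G33811 read 5.84, 5.88 and 5.77 against 10.59, 10.43 and 10.60. Their differences were -4.72 ± 0.13 and -4.71 ± 0.09, and the adjusted p of AT1G33811 (limma, 5.67e-11) was the smallest of all members with an at least 2-fold difference. Differences were -3.66 ± 0.12 for AT3G05180, -3.32 ± 0.12 for AT5G18430, -3.30 ± 0.16 for AT5G45950, -3.17 ± 0.15 for AT1G29660 and -2.95 ± 0.13 for AT5G45670. Each was between 7.72-fold and 12.6-fold higher in shoots.

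Neighbouring genes of the family did not share a pattern throughout. The 7 measured genes from AT1G28580 to AT1G28660 lie close together on chromosome 1, by the gene order of RefSeq (TAIR10.1). In DMSO arrays 3 of them were lower in roots, 1 was higher and 3 were not called. AT1G28580 read 6.97, 6.66 and 6.78 in DMSO roots and 5.82, 6.36 and 6.19 in DMSO shoots, a root excess of 0.67 ± 0.14. AT1G28600, separated from it by a single gene, read 4.14, 3.85 and 3.60 in DMSO roots and 6.75, 6.40 and 6.47 in DMSO shoots, a difference of -2.68 ± 0.17. These genes have no overlap between organs, and they lean in opposite directions. AT1G28610 and AT1G28660 were also lower in roots, by differences of -1.90 ± 0.24 and -1.30 ± 0.15.

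**Figure D3:**
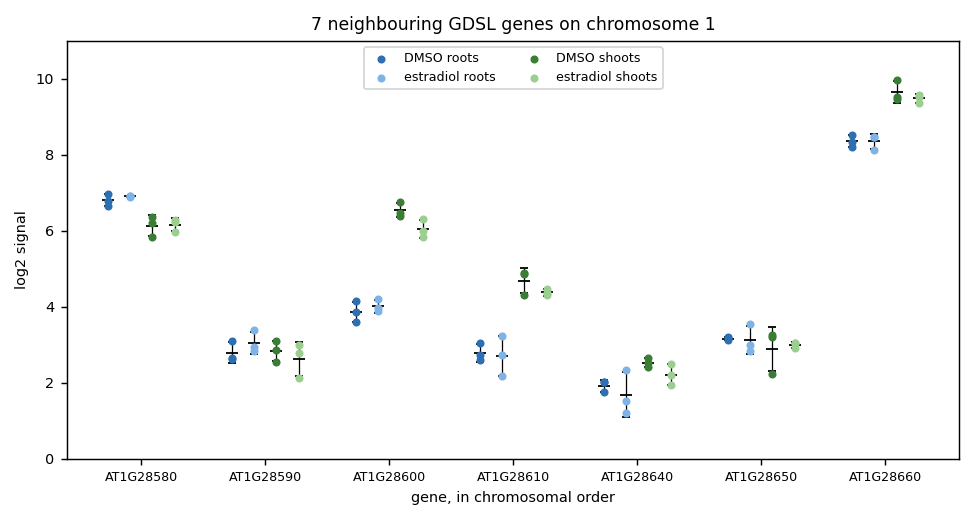
Log2 signal (y axis) on each array for 7 neighbouring GDSL genes of chromosome 1 in their order (x axis, not to scale); colours are the 4 groups, and black lines and bars give mean and SD (n = 3). AT1G28580 is higher in roots, AT1G28600, AT1G28610 and AT1G28660 are higher in shoots, and AT1G28590, AT1G28640 and AT1G28650 stay low in all groups.

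Other neighbours diverged too. On chromosome 2, AT2G19010 was lower in DMSO roots by a difference of -0.69 ± 0.17, while AT2G19050, with 4 protein-coding genes between them, was 17.2-fold higher in roots, as its values above show. AT2G19010 is dim, with a mean of 3.32 over the 12 arrays, below the lower quartile of all genes (3.38). On the estradiol arrays AT2G19010 was not called (-0.15 ± 0.17, adjusted p = 0.498, limma). The opposite calls of this pair therefore hold for the DMSO arrays only. On chromosome 5, AT5G45920 was slightly higher in roots, and AT5G45950, with 2 genes between, was at -3.30. Probe sequences were not used here, so the part of cross-hybridisation between related members was not tested. No member shared all its values with another probe set.

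The 10 genes not called between DMSO organs were mostly dim. Of these, 7 had a mean over the 12 arrays below 3.38, the lower quartile of all genes, among them RXF26 (AT1G58430), with group means between 2.02 and 2.50. Only 4 called members were as dim. AT1G56670 was the brightest of the uncalled genes, with 7.15 ± 0.20 in DMSO roots and 6.98 ± 0.16 in DMSO shoots (SD, n = 3); on the estradiol arrays it was called higher in roots, by 0.75 ± 0.15. No filter on low signal was applied in the main test; 29 members lay above the median level of all genes and 23 did not.

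Estradiol moved no GDSL gene past the threshold in the treated roots. Of the 52 genes, 0 were called higher and 0 lower (limma, smallest adjusted p = 0.864), as over all genes, where 0% were called in either direction. At an unadjusted p under 0.05 there were 5 genes, or 9.62%, against 5.17% of all genes. The median difference was -0.02 over the 52 genes and -0.01 over all genes, and 28 of 52 were below 0, or 53.8%, against 52% of all genes. The 95% interval of each of the 52 differences, not adjusted for the number of genes, lay within a 2-fold change, the widest bounds being -0.95 for AT2G19050 and 0.85 for AT2G19010.

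The genes with the smallest p in roots are given as values. AT5G45670 read 7.69, 7.23 and 7.61 with DMSO and 7.24, 6.95 and 7.06 with estradiol, a difference of -0.43 ± 0.13. AT1G71691 read 3.18, 3.46 and 3.18 with DMSO and 3.99, 3.55 and 3.62 with estradiol, at 0.45 ± 0.14. AT5G18430 stood at 0.35 ± 0.12, AT2G19010 at 0.47 ± 0.17, AT4G01130 at -0.30 ± 0.13 and AT5G45910 at -0.23 ± 0.11. The adjusted p of these 6 genes lay between 0.864 and 0.992 (limma). Root groups did not overlap for 5 genes that were higher with estradiol (9.62%, against 5.28% of all genes). The same held for 2 genes that were lower (3.85%, against 7.05% of all genes).

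Among the shoot-high genes, CUS2, AT4G28780 and AT4G01130 were also read without DMSO root replicate 3. It was their highest DMSO root array, so their estradiol differences had to rise without it. In roots CUS2 differed by -0.06 ± 0.29 between the treatments, and by 0.34 without DMSO root replicate 3. AT4G28780 differed by 0.11 ± 0.14, and by 0.27 without that array. AT4G01130 differed by -0.30 ± 0.13, and by -0.21 without it. For the suberin-linked genes AT1G74460, AT5G37690 and AT2G23540 the root differences were 0.03 ± 0.21, -0.03 ± 0.19 and 0.12 ± 0.22.

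In shoots, too, estradiol moved no GDSL gene past the threshold. Over all genes 0.133% were called higher and 0.0302% lower, and of the 52 GDSL genes 0 in each direction (limma, smallest adjusted p = 0.167). There were 6 genes at an unadjusted p under 0.05, or 11.5%, against 9.95% of all genes. The median difference was -0.06, against -0.00 over all genes, and 37 of 52 genes were below 0, or 71.2%, against 50.8% of all genes. The 95% interval of each of the 52 lay within a 2-fold change, with outer bounds of -0.98 for AT1G56670 and 0.98 for AT2G19050.

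AT1G56670 came nearest to the threshold in shoots. It read 6.90, 6.89 and 7.17 in DMSO shoots and 6.10, 6.32 and 6.60 in estradiol shoots. The groups did not overlap, and the difference was -0.65 ± 0.15 (limma, adjusted p = 0.167). In roots it was -0.06 ± 0.15. With limma's trend and robust settings the adjusted p in shoots was 0.0427; over 25 alternative settings it ran from 0.0427 to 0.431, and this was the only setting that called the gene.

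The other leading genes in shoots are likewise values only. AT1G28600 read 6.75, 6.40 and 6.47 with DMSO and 5.98, 6.30 and 5.85 with estradiol, a difference of -0.50 ± 0.17. AT2G27360 stood at -0.38 ± 0.13, AT5G22810 at -0.46 ± 0.18 and SFAR4 at -0.42 ± 0.18. Shoot groups did not overlap for 1 gene that was higher with estradiol, AT5G45910 (1.92%, against 6.85% of all genes). The same held for 5 genes that were lower (9.62%, against 6.38% of all genes). The cuticle genes CUS2, AT4G28780 and OSP1 differed by -0.02 ± 0.29, -0.14 ± 0.14 and -0.23 ± 0.14.

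**Figure D4:**
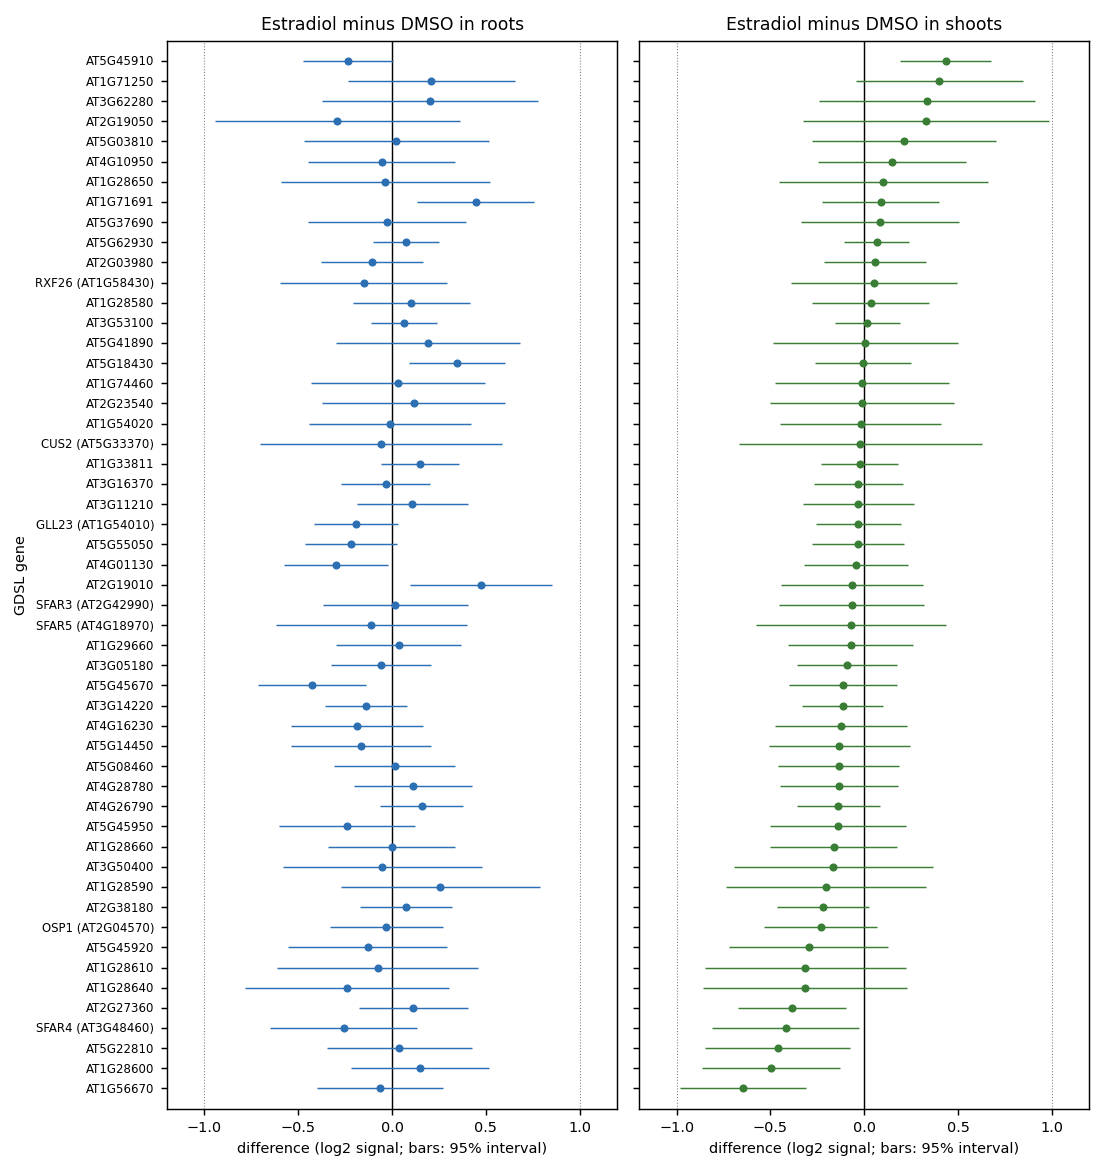
Estradiol minus DMSO difference in log2 signal (x axis) of each of the 52 GDSL genes (y axis, ordered by the shoot difference) in roots (left) and shoots (right), with 95% intervals; dotted lines mark a 2-fold change. Every interval lies between the dotted lines. In shoots 37 of 52 points lie below 0 (71.2%, against 50.8% of all genes), and in roots 28 of 52 (53.8%, against 52% of all genes).

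Whether the estradiol effect differed between shoots and roots was tested directly. The test called 0 of the 52 genes, with 0.471 as their lowest adjusted p (limma), and 0% of all genes. The intervals were wider here: those of 45 genes lay within a 2-fold difference between the effects, and those of 7 did not. AT5G45910 had the smallest p, with an estradiol difference of -0.23 in roots and 0.43 in shoots, which gives 0.67 ± 0.16 between them. It read 3.02, 2.81 and 3.24 in DMSO roots and 2.71, 2.71 and 2.73 in DMSO shoots, so that roots were higher by 0.31 ± 0.11. With estradiol it read 2.77, 2.69 and 2.90 in roots and 3.19, 3.18 and 3.07 in shoots, so that roots were lower, at -0.36 ± 0.11. Its mean lies below the lower quartile of all genes. Both calls were lost under some alternative settings, 11 on the DMSO and 6 on the estradiol arrays. The DMSO call was lost without DMSO root replicate 1 or 3 and without any 1 DMSO shoot array, and the estradiol call without estradiol root replicate 2. Without DMSO root replicate 3 the DMSO difference was 0.20. AT1G28600, AT1G56670 and AT2G27360 followed, with shoot minus root differences of the effect of -0.65 ± 0.24, -0.58 ± 0.21 and -0.50 ± 0.19.

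The listed genes of the cuticle, wax, suberin and ER body pathways had 0 calls with estradiol in roots and 0 in shoots among the 15 measured, in the fit of all arrays. The ER body and myrosinase genes had a median difference of -0.15 in roots and 0.16 in shoots over 10 genes. BGLU22, at 1.22 ± 0.35 in shoots, did not pass (limma, adjusted p = 0.276). It read 2.50, 4.19 and 2.55 in DMSO shoots, and without DMSO shoot replicate 2 the difference was 1.77 and was called (adjusted p = 0.00239, the only 1 of 25 settings; range up to 0.616), as was the difference of its effects (adjusted p = 0.0308). The median of 98 root-enriched genes, chosen on the DMSO arrays, was between 3.73 and 3.82 in estradiol shoots. That of 82 genes chosen on the estradiol arrays was between 3.56 and 3.59 in DMSO shoots. The sets hold different genes, and in roots their medians were 9.12 to 9.31 with estradiol and 9.37 to 9.43 with DMSO. These medians therefore do not compare the treatments. The part of root signal in the shoot differences above was not tested.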

How the data were processed

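The authors' deposited values are log2 signals per probe set and array, from 0.339 to 14.1, from Expression Console 1.3 by Affymetrix (source: the submitters' processing notes). How background, summarization and normalization were done is not given in the sources used, and the number of arrays limits the precision. GEO's platform annotation named the probe sets: 16722 of 38408 had 1 gene, 759 had several and 20927 had none. The probe set with the highest mean was kept for each of 16548 genes; 16505 of them matched RefSeq's TAIR10.1 gene table, from which symbols and neighbours were taken. Only AT4G26790 among the members had more than 1 probe set.

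Means of the 4 groups were fitted together in R 4.3.3 with limma 3.58.1 (lmFit, eBayes, 8 residual degrees of freedom) on the values as deposited, tested first on simulated data. Titles gave each sample's group and replicate number. P-values were adjusted over all genes. The gene lists, members and tests were chosen with earlier results of these data known. Named were members with a published name, the 12 largest called organ differences in each direction, called members or the 6 smallest p in each estradiol comparison (4 for the difference of effects), and up to 3 called genes of each pathway list; other members named were picked after their values were seen. Over all genes, same-numbered arrays deviated together only weakly (correlations from 0.0226 to 0.137, not all over 0.1), so replicate numbers were not used as pairs. Single genes can share more: AT1G74460, AT5G37690, AT2G23540 and OSP1 were highest in replicate 2 in the roots of both treatments. CUS2 and AT4G28780 were not. Alternatives covered the fit, blocks, weights, scaling, dim genes, probe sets, a pseudocount of 16, thresholds and each array left out. Sequences were not used here.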

Additional observations from a re-analysis of the deposited data

How the results depend on the processing

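The counts of called members were recomputed under each alternative. With a replicate block for the number over all arrays, 42 members were called between DMSO organs, against 42 without it, and 40 between estradiol organs, against 41; with seedling sets as the replicate block the counts were 39 and 41, and with a replicate block within each organ estradiol called 0 in roots and 0 in shoots. With each array left out in turn, 38 to 41 were called between DMSO organs and 39 to 42 between estradiol organs, and 0 in each estradiol comparison and in the difference of the effects. Asking for a 2-fold change left 27 between estradiol organs. The trend and robust settings gave 1 call in estradiol shoots (AT1G56670), and the cause was not tested; no other setting called a member with estradiol. Subtracting array medians moved the median root minus shoot difference of all genes from -0.09 to -0.29. Relative to it, the median of the 52 genes was -0.56, and no called member changed sign under this or under quantile normalization. With array medians subtracted, 34 of the 52 estradiol differences were below 0 in shoots and 24 in roots. With quantile normalization these counts were 37 and 31. Calls of named members were lost most often for the small differences of AT1G54020, GLL23, AT5G45910, AT5G45920 and AT2G27360 between DMSO organs. With 3 arrays a group, an uncalled gene is not shown to be unchanged. In roots, estradiol differences over all genes ran from -1.46 to 1.17 and 0 were called, so differences above 2-fold also went uncalled.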

Other observations

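Members of the list share a probe set with another gene in 2 cases, and these probe sets entered no comparison. The probe set of AT1G29670 and AT1G29680 read 8.58 ± 0.18 in DMSO roots, 8.39 ± 0.25 in estradiol roots, 10.35 ± 0.05 in DMSO shoots and 10.28 ± 0.07 in estradiol shoots (log2 signal, mean ± SD, n = 3). The probe set of AT3G26430 and ATRZ-1A read 7.69 ± 0.12, 7.69 ± 0.09, 7.85 ± 0.10 and 7.81 ± 0.12 in the same order. Which gene of each pair gives the signal cannot be told apart.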
